A study of Mus musculus with 6 samples.

Results

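Transforming growth factor beta (TGF-beta) signalling was described through 9 genes, each matched to a single Ensembl identifier among the 32493 genes of the count table. They were chosen by name, with earlier results of these data known. They were the ligands *Tgfb1*, *Tgfb2* and *Tgfb3*, the receptors *Tgfbr1*, *Tgfbr2* and *Tgfbr3*, the latent-complex proteins *Ltbp1* and *Ltbp3*, and the output gene *Tgfbi*. RNA-seq was performed on primary neural stem cells (NSCs) taken from the lateral ventricle region of E14.5 mouse embryos and grown for several passages in a serum-free B27 medium with EGF and bFGF. The question was how the transcriptome of these cells differed when miR-151, a microRNA encoded in an intron of *Ptk2*, was deleted. In both groups the miR-151 locus was flanked by *loxP* sites on both alleles (fl/fl). The cko embryos also carried Emx1-IRES-Cre, which is active in progenitors of the dorsal telencephalon, whereas the controls, labelled wt, were Cre-negative littermates. No group carried Cre without the floxed allele, so that Cre and the loss of miR-151 cannot be told apart.

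Of the 6 count columns, that of wt replicate 2 equalled the mean of wt replicates 1 and 3, rounded up, for 32493 of 32493 genes. It holds no independent measurement, and the comparison was made between 3 cko libraries and 2 wt libraries. Total counts of these 5 libraries ranged from 17883796 to 23335736, at which 3 counts amount to between 0.129 and 0.168 CPM (counts scaled by library size). Whether the libraries of a genotype came from separate embryos is not stated for them, so the p-values measure the spread between these libraries alone. A fit without wt 1 or wt 3 keeps 1 wt library, so that its spread comes from the cko libraries alone. Fits with all 6 columns count wt replicate 2 as a separate library, although it holds no independent measurement. Levels are normalized CPM, and values per library are given in the order wt 1, wt 3, cko 1, cko 2, cko 3.

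TGF-beta ligands are secreted as latent dimers, in which the propeptide stays wrapped around the growth factor and is tethered to the matrix by latent TGF-beta binding proteins (LTBPs). Integrins and proteases release the ligand, which assembles a type II receptor (*Tgfbr2*) with a type I receptor kinase (*Tgfbr1*), and the latter phosphorylates SMAD2 and SMAD3. These enter the nucleus with SMAD4 and act on target genes. In the developing brain the pathway is known for restraining progenitor proliferation and for its part in neuronal and astrocytic differentiation.

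The labelled cell type was checked against its markers. The summed level of 8 NSC and radial glia genes was 7916, 6971, 8849, 8259 and 8147 CPM, and *Vim* was the most abundant of them. *Sox2*, a transcription factor of neural progenitors, was measured at 583, 556, 619, 626 and 607 CPM. Markers of NSCs were thus abundant in each of the 5 libraries.

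The level of miR-151 itself was not analysed here, so the deletion was not checked by these data. *Ptk2*, the host gene, was measured at 133, 150, 142, 138 and 140 CPM, and its log2 fold change was -0.01 (SE 0.08; adjusted p = 0.943, edgeR's quasi-likelihood test with Benjamini-Hochberg adjustment). The genotypes overlapped for *Ptk2*.

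The libraries of the genotypes also differed in genes of the sex chromosomes. *Xist*, the RNA that silences an X chromosome in female cells, was at 2889 and 2557 CPM in wt and at 787, 849 and 894 CPM in cko. *Kdm5d*, a Y-linked demethylase gene, was at 25.1 and 27.0 CPM in wt and at 68.9, 69.1 and 67.6 CPM in cko. Both kinds of transcript were present in each library, with less *Xist* and more *Kdm5d* in the cko libraries, so that genotype and the share of cells of each sex cannot be told apart. *Mki67*, a proliferation marker, was at 254 and 269 CPM in wt and at 539, 705 and 683 CPM in cko. These genes were chosen after their values were seen, and their part in the results below was not tested.

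Of the 9 members, all of which passed the filter on low counts, 4 were lower in cko when edgeR's quasi-likelihood test was adjusted by Benjamini-Hochberg over 16710 genes (adjusted p under 0.05). They were *Tgfb2*, *Tgfb3*, *Ltbp1* and *Ltbp3*, and 8.57% of all tested genes were called lower by the same rule. No member was called higher, against 7.86% of all tested genes. At an unadjusted p under 0.05 edgeR had 1 member higher, *Tgfbr1*, and DESeq2 on the 5 libraries called 0 higher. With a library left out, edgeR called 1 member lower without cko 2 and 0 without cko 3. The median log2 fold change of the members was -0.66, beside -0.00 for all tested genes.

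The study's own rule asks for a log2 fold change beyond 0.9 with an unadjusted p under 0.01. In edgeR, 1 member, *Tgfb3*, passed it as lower, and 0 members passed it as higher. Over all tested genes, 4.17% passed it as lower and 2.39% as higher. In normalized level the genotypes did not overlap for 7 members: 6 had each cko library below both wt libraries, as had 24.3% of tested genes, and 1 had each cko library above them, as had 25.4%.

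**Figure D1:**
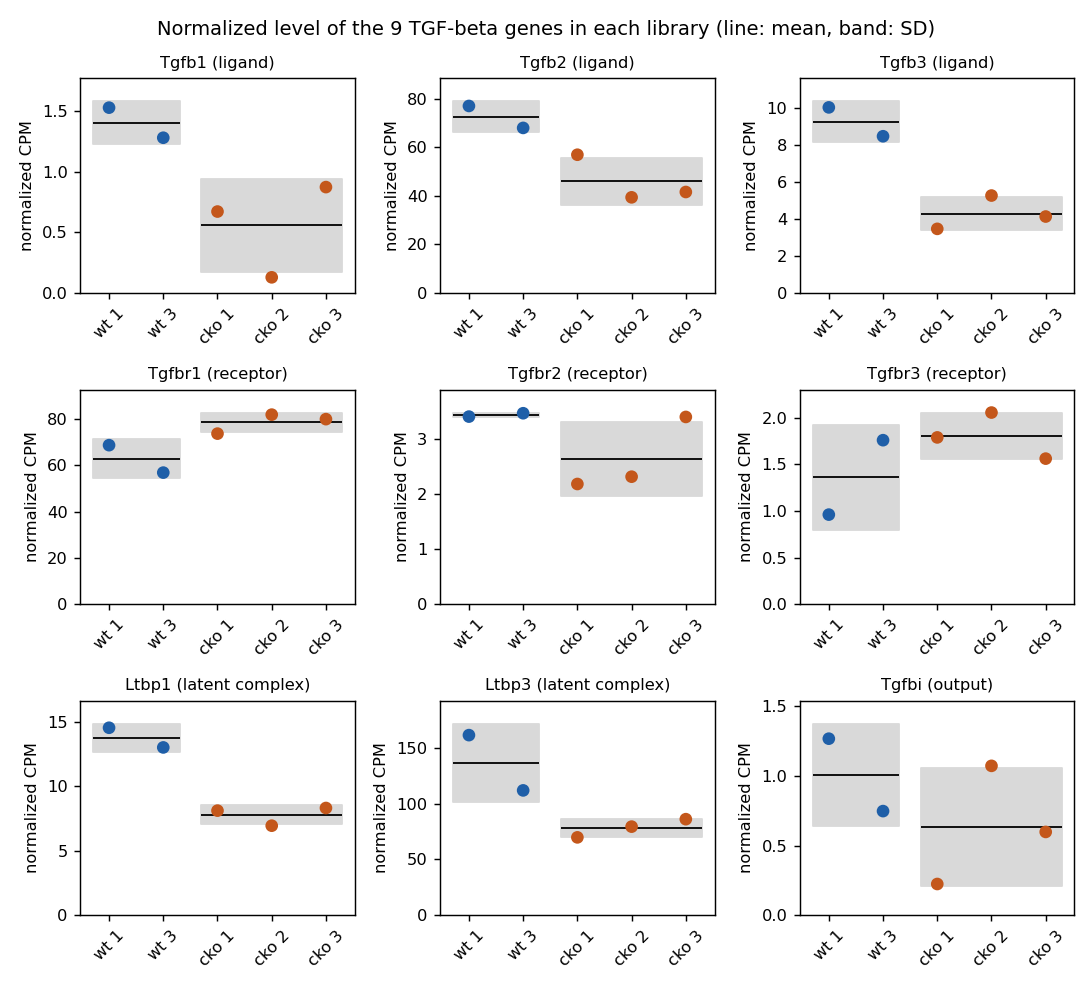
Normalized CPM (vertical axis, from 0) of each of the 9 genes in the 5 libraries (horizontal axis), with wt in blue and cko in orange; the line is the mean of a genotype and the band its SD. *Tgfb2*, *Tgfb3*, *Ltbp1* and *Ltbp3* lie lower in each cko library, for instance *Ltbp1* at 6.94 to 8.32 CPM in cko against 13.0 and 14.55 CPM in wt.

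Per kilobase of exon, the levels of the members in wt fell into a high, a middle and a low group. *Ltbp3* (15.1 ± 3.86 CPM per kb, SD, n = 2), *Tgfb2* (12.5 ± 1.11) and *Tgfbr1* (9.61 ± 1.29) formed the high group, in which *Ltbp3* and *Tgfb2* did not differ beyond their spread. *Tgfb3* (2.74 ± 0.327) and *Ltbp1* (1.29 ± 0.101) lay in the middle, apart from each other. In the low group *Tgfbr2* was at 0.420 ± 0.00527 CPM per kb, and *Tgfb1* (0.279 ± 0.0348), *Tgfbi* (0.267 ± 0.0975) and *Tgfbr3* (0.208 ± 0.0864) did not differ beyond their spread. In cko the order at the top was another: *Tgfbr1* (12.03 ± 0.657 CPM per kb, SD, n = 3) was above *Ltbp3* (8.65 ± 0.904) and *Tgfb2* (7.95 ± 1.65) in each of the 3 libraries.

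RefSeq promoter windows on GRCm38.p6, reaching from 250 bases before to 50 bases after a start site, matched 7 of the 9 members with 9 windows; *Tgfb3* and *Tgfbr3* had no entry. For the called members with a window, *Tgfb2*, *Ltbp1* and *Ltbp3*, the 250 bases before each start are shown, 5′ to 3′ on the gene's strand. Capitals mark CAGACA, a SMAD-type motif that contains the complement of GTCT, on either strand (TGTCTG on the other), and the AP-1 motif TGANTCA.
*Tgfb2*, chr1:186705990-186706239, minus strand: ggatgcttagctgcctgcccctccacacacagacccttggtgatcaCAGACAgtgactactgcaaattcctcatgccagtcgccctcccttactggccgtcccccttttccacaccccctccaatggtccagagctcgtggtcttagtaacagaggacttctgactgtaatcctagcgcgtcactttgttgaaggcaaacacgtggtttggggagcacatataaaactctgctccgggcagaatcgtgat
*Ltbp1*, outer start, chr17:75005279-75005528, plus strand: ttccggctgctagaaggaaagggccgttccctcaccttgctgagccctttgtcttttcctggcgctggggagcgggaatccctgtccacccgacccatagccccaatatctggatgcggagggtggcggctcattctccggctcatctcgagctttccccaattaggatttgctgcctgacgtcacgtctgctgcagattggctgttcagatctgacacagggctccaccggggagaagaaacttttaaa
*Ltbp1*, internal start, chr17:75178531-75178780, plus strand: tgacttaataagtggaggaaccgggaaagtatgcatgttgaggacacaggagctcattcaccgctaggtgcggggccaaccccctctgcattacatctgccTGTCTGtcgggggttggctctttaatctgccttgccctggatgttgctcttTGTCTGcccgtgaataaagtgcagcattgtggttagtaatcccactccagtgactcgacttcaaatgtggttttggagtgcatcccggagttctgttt
*Ltbp3*, chr19:5740650-5740899, plus strand: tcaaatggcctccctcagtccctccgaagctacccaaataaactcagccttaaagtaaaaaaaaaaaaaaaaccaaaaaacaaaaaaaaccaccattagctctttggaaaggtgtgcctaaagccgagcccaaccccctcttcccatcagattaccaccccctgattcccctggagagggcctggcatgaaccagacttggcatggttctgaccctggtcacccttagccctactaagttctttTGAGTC

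The *Tgfb2* stretch shares 167 bases with an exon of the antisense gene *Gm29491*, the internal *Ltbp1* stretch lies in an intron of the longer *Ltbp1* transcripts, and the outer *Ltbp1* and the *Ltbp3* stretches overlap no annotated gene. In the *Ltbp3* window TGAGTCA begins 6 bases before the start and ends just after it, and CAGACA overlaps its end, so that both run past the stretch shown. CAGACA was found in 1 *Tgfb2* place, 2 *Ltbp1* places and 1 *Ltbp3* place, and also in 1 place of the internal window of *Tgfbr1*, which was not called. It was absent from the windows at the outer starts of *Ltbp1* and *Tgfbr1* and from those of *Tgfb1*, *Tgfbr2* and *Tgfbi*. Of all 32851 promoter windows, 21.0% held CAGACA and 7.81% held TGANTCA. The palindromic SMAD motif GTCTAGAC was in no member window and in 0.213% of all windows, whereas its repeated element GTCT was in 8 of the 9 member windows and in 88.0% of all windows. A match of these letters is a description and no evidence of binding.

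Among the ligands, *Tgfb2* had the highest level per kilobase. Its normalized level was 77.1 and 68.1 CPM in wt and 57.0, 39.4 and 41.6 CPM in cko. The cko libraries lay below both wt libraries, and cko 1 was the closest to them. *Tgfb2* fell by 36.7%, a log2 fold change of -0.66 (SE 0.16; 95% interval -1.03 to -0.29; adjusted p = 0.0311, edgeR's quasi-likelihood test with Benjamini-Hochberg adjustment). The call was lost without cko 2 (adjusted p = 0.115) and without cko 3 (0.123) in the same edgeR test. Over the 12 alternatives the adjusted p ranged from 4.01e-08 to 0.123. The lowest value came from edgeR without the low-count filter, and DESeq2 on the 5 libraries gave an adjusted p of 0.00233. Without wt 1, which leaves 1 wt library, the log2 fold change was -0.58.

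*Tgfb3*, the ligand best known from palate and lung development, was at 10.05 and 8.48 CPM in wt and at 3.47, 5.27 and 4.14 CPM in cko. The genotypes were well separated, with the highest cko library under the lowest wt library. *Tgfb3* fell by 53.5%, with a log2 fold change of -1.10 (SE 0.22; 95% interval -1.62 to -0.59; adjusted p = 0.0167 in edgeR's quasi-likelihood test with Benjamini-Hochberg adjustment). Leaving out cko 3 raised the edgeR adjusted p to 0.0830, the highest of the 12 alternatives, of which the lowest gave 1.76e-06. That lowest value came from all 6 columns in DESeq2, and DESeq2 on the 5 libraries gave 0.000656.

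*Tgfb1*, the ligand most studied in immune cells and fibrosis, was scarce in these cultures. Its raw counts were 35 and 24 in wt and 12, 3 and 19 in cko, which correspond to 1.53, 1.28, 0.671, 0.129 and 0.873 normalized CPM. Each cko library was below both wt libraries, and cko 2 was at the level of 3 counts. The log2 fold change of -1.35 (SE 0.61; 95% interval -2.79 to 0.09) was not called (adjusted p = 0.177 in edgeR's quasi-likelihood test with Benjamini-Hochberg adjustment). Without the filter on low counts the edgeR adjusted p was 0.0304, and over the 11 alternatives that could test the gene it ranged from 0.0304 to 0.334.

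Summed over the 3 ligands, the level was 16.6 and 14.52 CPM per kb in wt and 11.0, 8.39 and 8.59 CPM per kb in cko. *Tgfb2* made up 80.3% and 81.0% of this sum in wt and 89.5%, 81.1% and 83.7% in cko, so that it was the main ligand transcript in both genotypes. *Tgfb3* contributed 17.9% and 17.3% in wt and 9.32%, 18.6% and 14.2% in cko, with overlap between the genotypes. For the summed level the exact permutation test between 2 and 3 libraries gave a two-sided p of 0.2, the smallest that this design allows.

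**Figure D2:**
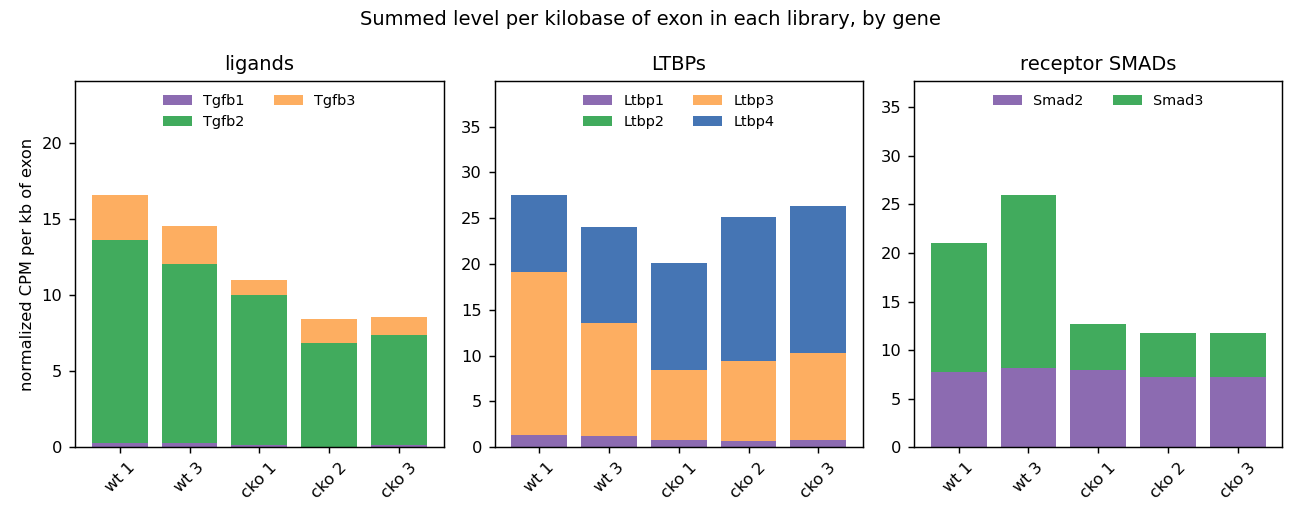
Stacked normalized CPM per kilobase of exon (vertical axis, from 0) in each of the 5 libraries (horizontal axis) for the ligands, the LTBPs and the receptor SMADs, each colour a gene; *Tgfb1* and *Ltbp2* are barely visible. The ligand sum is 8.39 to 11.0 in cko and 14.52 to 16.6 in wt, *Ltbp4* replaces *Ltbp3* as the larger share of the LTBPs, and *Smad3* takes 37.5% to 38.8% of the receptor SMADs in cko.

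The type I receptor kinase *Tgfbr1* had the highest level per kilobase of the receptors. It was measured at 68.8 and 56.9 CPM in wt and at 73.7, 82.0 and 80.01 CPM in cko. Each cko library lay above both wt libraries. Its log2 fold change of 0.32 (SE 0.10; 95% interval 0.08 to 0.56) did not pass the threshold (adjusted p = 0.0733, edgeR's quasi-likelihood test with Benjamini-Hochberg adjustment). With wt 1 left out the log2 fold change was 0.46, and without wt 3 it was 0.20, each from a fit with 1 wt library. *Tgfbr1* was called without the low-count filter (edgeR adjusted p = 0.0218) and with all 6 columns in edgeR (0.0176) and in DESeq2 (0.00551). The 6-column fits count wt 2 as a separate library, and DESeq2 on the 5 libraries gave an adjusted p of 0.0631. Over the 12 alternatives the adjusted p ranged from 0.00551 to 0.234.

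The type II receptor *Tgfbr2*, which binds the ligand and activates TGFBR1, had few counts. Its level was 3.41 and 3.47 CPM in wt and 2.18, 2.31 and 3.40 CPM in cko. The cko 3 library lay just under the wt libraries, while cko 1 and cko 2 were lower. The co-receptor *Tgfbr3* (betaglycan), which presents TGF-beta2 to the signalling receptors, was at 0.961 and 1.76 CPM in wt and at 1.79, 2.06 and 1.56 CPM in cko, and its genotypes overlapped. Neither was called: the log2 fold change was -0.38 (SE 0.27; adjusted p = 0.369) for *Tgfbr2* and 0.42 (SE 0.35; adjusted p = 0.452) for *Tgfbr3* in edgeR's quasi-likelihood test with Benjamini-Hochberg adjustment. The 95% intervals were -1.01 to 0.25 for *Tgfbr2* and -0.41 to 1.25 for *Tgfbr3*, so that a sizeable change and no change cannot be told apart. Per kilobase, *Tgfbr1* made up 94.9% and 92.6% of the receptor sum in wt and 95.4%, 95.5% and 94.9% in cko.

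*Ltbp1*, which links the latent ligand to fibrillin and fibronectin in the matrix, was at 14.55 and 13.0 CPM in wt and at 8.11, 6.94 and 8.32 CPM in cko. Libraries of a genotype lay close together, and the genotypes did not overlap. *Ltbp1* fell by 43.5%, a log2 fold change of -0.82 (SE 0.15; 95% interval -1.18 to -0.47; adjusted p = 0.0131, edgeR's quasi-likelihood test with Benjamini-Hochberg adjustment). In edgeR the adjusted p was 0.0700 without cko 2 and 0.0589 without cko 3, in a range of 1.01e-06 to 0.0700 over the 12 alternatives. The lowest value came from all 6 columns in DESeq2, and DESeq2 on the 5 libraries gave 0.00062.

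*Ltbp3*, an LTBP needed for ligand secretion in bone, had the highest mean level per kilobase of all members in wt. It did not differ there from *Tgfb2* beyond their spread. Its level was 161 and 112 CPM in wt and 69.8, 79.4 and 86.1 CPM in cko. The wt libraries differed from each other by more than the cko libraries did, yet both were above each cko library. *Ltbp3* fell by 42.6%, with a log2 fold change of -0.80 (SE 0.16; 95% interval -1.17 to -0.43; adjusted p = 0.0164 in edgeR's quasi-likelihood test with Benjamini-Hochberg adjustment). Without wt 1, its highest library, the log2 fold change was -0.52, and without wt 3 it was -1.04, each from a fit with 1 wt library. *Ltbp3* was not called without cko 1 (edgeR adjusted p = 0.0574), cko 2 (0.0715) or cko 3 (0.0526). Over the 12 alternatives the adjusted p ranged from 4.95e-14 to 0.0715. The lowest value came from edgeR without the low-count filter, and DESeq2 on the 5 libraries gave an adjusted p of 5.10e-05.

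Among the 4 LTBP genes, *Ltbp4* went the other way. It was at 54.3 and 67.2 CPM in wt and at 75.0, 102 and 104 CPM in cko, each cko library above both wt libraries. *Ltbp4* was called higher, with a log2 fold change of 0.63 (SE 0.16, adjusted p = 0.0388 in edgeR's quasi-likelihood test with Benjamini-Hochberg adjustment). The call was lost without cko 2 (edgeR adjusted p = 0.146) or cko 3 (0.145), in a range of 8.99e-08 to 0.146 over the 12 alternatives. The lowest value came from edgeR without the low-count filter, and DESeq2 on the 5 libraries gave an adjusted p of 0.00381. Without wt 1, which leaves 1 wt library, the log2 fold change was 0.47. *Ltbp2* was removed by the filter, with at most 0.373 CPM in a library. Per kilobase, *Ltbp4* made up 30.4% and 43.3% of the LTBP sum in wt and 57.8%, 62.6% and 61.0% in cko, while *Ltbp3* made up 64.6% and 51.4% in wt and 38.3%, 34.8% and 36.05% in cko. The sum itself, 27.6 and 24.0 CPM per kb in wt and 20.1, 25.2 and 26.3 CPM per kb in cko, overlapped between the genotypes. For the *Ltbp4* share the exact permutation test gave a two-sided p of 0.2, the smallest possible here.

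*Tgfbi*, a matrix protein gene named for its induction by TGF-beta, was near the limit of detection. Its raw counts were 29 and 14 in wt and 4, 25 and 13 in cko, or 1.27, 0.747, 0.224, 1.07 and 0.597 normalized CPM. The genotypes overlapped, and wt 1 and cko 2 were the highest libraries. The log2 fold change of -0.64 (SE 0.59; 95% interval -2.03 to 0.74) was not called (adjusted p = 0.494, edgeR's quasi-likelihood test with Benjamini-Hochberg adjustment), and its interval spans the changes measured for *Tgfb2* and *Tgfb3*.

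**Figure D3:**
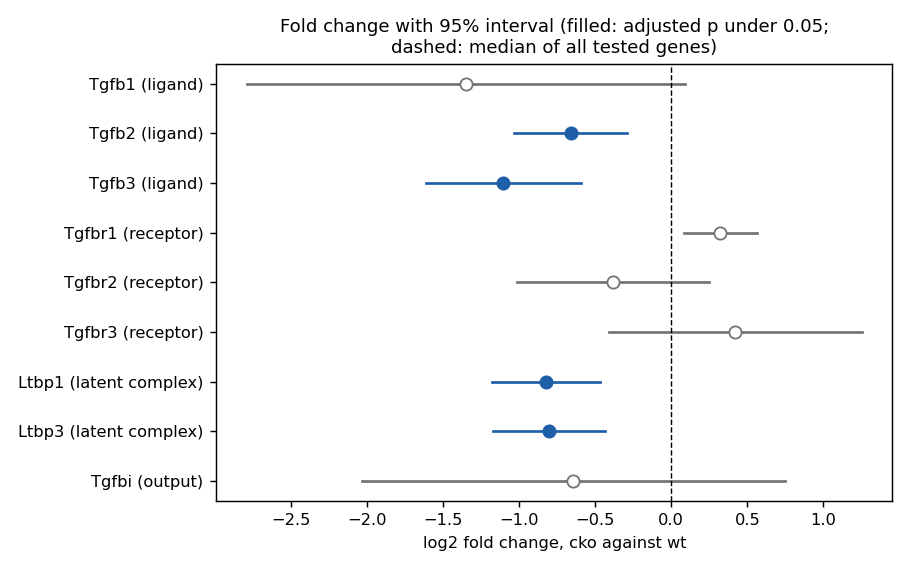
Log2 fold change of cko against wt (horizontal axis) for each of the 9 genes (vertical axis), with its 95% interval; filled blue points passed an adjusted p under 0.05 and open points did not, and the dashed line is the median of all tested genes. The filled points lie between -1.10 and -0.66, *Tgfbr1* is at 0.32, and the intervals of *Tgfb1* and *Tgfbi* are the widest.

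For each called member, the genes most like it were the 3 with the smallest root mean square difference of centred log2 CPM over the 5 libraries, among 11455 genes with a mean of at least 5 CPM. *Tox*, *Creg2* and *Ajm1* were closest to *Tgfb2*, with differences of 0.06, 0.07 and 0.07 on the log2 scale. *CT010445.1*, *Anxa2* and *Wfs1* were closest to *Tgfb3*, at 0.09, 0.10 and 0.10. *Aldh9a1*, *Sgk1* and *Smox* were closest to *Ltbp1* (0.05, 0.05 and 0.07), and *Arhgap23*, *Grk3* and *Gm30731* to *Ltbp3* (0.04, 0.05 and 0.08). No gene was shared by these lists of neighbours, and with 5 libraries many genes have a like pattern.

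Beyond the members, 83 pathway genes in 5 lists were examined, of which 58 passed the filter on low counts. Of these 58, 16 were called lower and 3 higher in cko, and 39 were not called, beside 8.57% lower and 7.86% higher among all tested genes. Their median log2 fold change was -0.23, beside -0.00 for all 16710 tested genes. The count of lower genes was 8 without cko 2 and 9 without cko 3, and that of higher genes was 0 without either. Over all tested genes, 416 were called lower without cko 2 and 457 without cko 3, against 1432 from all 5 libraries.

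Of the genes for latency and activation, 14 of 16 were tested, with 3 lower and 1, *Ltbp4*, higher, beside 8.57% and 7.86% of all tested genes. The integrin subunit *Itgb5* was at 131 and 188 CPM in wt and at 56.8, 37.3 and 37.2 CPM in cko (log2 fold change -1.87, SE 0.22). *Mmp14*, a membrane protease that can release latent ligand, was at 40.8 and 51.6 CPM in wt and at 25.1, 23.7 and 23.6 CPM in cko (log2 fold change -0.94, SE 0.12). Both were called in each of the 12 alternatives. *Itgav*, the alpha subunit that pairs with *Itgb5* and *Itgb8*, was at 240 and 305 CPM in wt and at 199, 175 and 169 CPM in cko. Its log2 fold change was -0.59 (SE 0.12, adjusted p = 0.0180, edgeR's quasi-likelihood test with Benjamini-Hochberg adjustment). The *Itgav* call was lost without cko 2 (edgeR adjusted p = 0.0917) or cko 3 (0.0909), with alternatives from 1.62e-08 to 0.0917. The lowest value came from edgeR without the low-count filter, and DESeq2 on the 5 libraries gave an adjusted p of 0.000409. *Itgb8*, known for activating latent TGF-beta in the brain, was not called at 649 and 503 CPM in wt and 774, 670 and 663 CPM in cko. Its log2 fold change was 0.29 (SE 0.13, adjusted p = 0.169 in the same edgeR test). The value became 0.47 without wt 1 and 0.12 without wt 3, each from a fit with 1 wt library. *Itgb8* was called without the low-count filter in edgeR (adjusted p = 0.0180). It was also called with all 6 columns in DESeq2 (adjusted p = 0.0349), where wt 2 counts as a separate library, but not in DESeq2 on the 5 libraries (0.139). The alternatives that kept both wt libraries ranged from 0.0180 to 0.360.

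Of 10 decoys and co-receptors, 6 were tested, and 2 were called lower and 0 higher, beside 8.57% and 7.86% of all tested genes. *Vasn*, a membrane protein that traps TGF-beta, was at 24.3 and 29.1 CPM in wt and at 16.6, 19.4 and 18.7 CPM in cko (log2 fold change -0.55, SE 0.13; adjusted p = 0.0283 in edgeR with Benjamini-Hochberg adjustment). *Cd109*, a TGF-beta co-receptor that dampens signalling, was at 69.0 and 44.8 CPM in wt and at 31.6, 35.0 and 40.3 CPM in cko (log2 fold change -0.68, SE 0.18; adjusted p = 0.0462 in edgeR with Benjamini-Hochberg adjustment). In edgeR, *Vasn* was not called without cko 1 (adjusted p = 0.0773), cko 2 (0.0864) or cko 3 (0.103), and its alternatives ranged from 0.000226 to 0.103. Without wt 3, which leaves 1 wt library, its log2 fold change was -0.41. *Cd109* was not called in edgeR without cko 1 (adjusted p = 0.130), cko 2 (0.145) or cko 3 (0.0899), nor with the replicate number as a block (0.0581). Its alternatives ranged from 1.03e-07 to 0.145. The lowest value came from edgeR without the low-count filter, and DESeq2 on the 5 libraries gave an adjusted p of 0.00583. Without wt 1, which leaves 1 wt library, its log2 fold change was -0.34.

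Among 11 activin-type ligands and other receptors, 5 were tested and 0 were called in either direction by edgeR, 0 had an unadjusted p under 0.05, and 0 were called by DESeq2. The most abundant was *Gdf11* at 104, 84.5, 97.1, 76.4 and 74.0 CPM, with overlap between the genotypes.

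Of 16 SMADs, cofactors and inhibitors, 14 were tested, of which 2 were called lower and 1 higher, numbers too small to be set apart from the 8.57% and 7.86% of all tested genes. *Smad3*, a receptor-activated SMAD of the pathway, was at 74.1 and 99.0 CPM in wt and at 26.4, 24.7 and 25.3 CPM in cko. Its cko libraries were nearly equal and far below wt, with a log2 fold change of -1.76 (SE 0.13; adjusted p = 0.000879 in edgeR's quasi-likelihood test with Benjamini-Hochberg adjustment). *Smad2*, its partner, was at 67.7 and 71.6 CPM in wt and at 69.9, 63.9 and 63.1 CPM in cko, with overlap and a log2 fold change of -0.09 (SE 0.08; 95% interval -0.28 to 0.11). Per kilobase, *Smad3* made up 63.4% and 68.7% of the sum of both in wt and 37.5%, 38.0% and 38.8% in cko, for which the exact permutation test gave the smallest two-sided p possible, 0.2.

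The shared partner *Smad4* was at 127, 126, 126, 139 and 132 CPM and was not called (log2 fold change 0.06, SE 0.07). *Smad7*, the inhibitory SMAD induced by the pathway, was at 3.80, 3.95, 2.29, 3.69 and 3.54 CPM and was not called either (log2 fold change -0.28, SE 0.26). *Tgif1*, a SMAD corepressor, was at 16.4 and 15.2 CPM in wt and at 6.10, 4.80 and 5.65 CPM in cko (log2 fold change -1.52, SE 0.16; adjusted p = 0.00221 in edgeR with Benjamini-Hochberg adjustment). *Smad3* and *Tgif1* were called in each of the 12 alternatives. *Pmepa1*, which sequesters SMADs from the receptor, was higher in cko at 10.7, 12.9 and 12.7 CPM against 8.08 and 6.94 CPM in wt (log2 fold change 0.69, SE 0.16). The *Pmepa1* call (edgeR adjusted p = 0.0295) was lost without cko 2 (0.132) or cko 3 (0.130) and with the replicate number as a block (0.0942). Over the alternatives its adjusted p ranged from 0.000148 to 0.132.

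Of 30 transcriptional outputs, 19 were tested, 9 were called lower and 1 higher, beside 8.57% and 7.86% of all tested genes, and the median log2 fold change was -0.81. *Mmp2*, a matrix gelatinase, was at 3.80 and 7.63 CPM in wt and at 1.18, 1.20 and 0.965 CPM in cko (log2 fold change -2.35, SE 0.35). *Fn1*, fibronectin, was at 16.6 and 34.5 CPM in wt and at 4.81, 6.64 and 7.26 CPM in cko (log2 fold change -2.02, SE 0.31). In both genes wt 3 was well above wt 1, and no cko library reached wt 1. *Klf10*, a TGF-beta inducible repressor, was at 81.7 and 85.7 CPM in wt and at 27.1, 32.7 and 35.8 CPM in cko (log2 fold change -1.39, SE 0.12). *Cdkn2b*, a cyclin-dependent kinase inhibitor, was at 17.1 and 18.6 CPM in wt and at 7.67, 6.43 and 7.31 CPM in cko (log2 fold change -1.33, SE 0.14). These 4 genes were called in each of the 12 alternatives.

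The other 5 outputs called lower, named after their values were seen, were *Ccn1*, *Col4a2*, *Bhlhe40*, *Junb* and *Timp3*, with log2 fold changes from -1.52 to -0.77. *Id2*, a helix-loop-helix inhibitor that TGF-beta represses in several cell types, was called higher at 78.3, 66.0 and 70.0 CPM in cko against 50.8 and 40.1 CPM in wt (log2 fold change 0.65, SE 0.13). The *Id2* call (edgeR adjusted p = 0.0152) was lost without cko 2 (0.0525) or cko 3 (0.0691). Over the alternatives its adjusted p ranged from 1.33e-07 to 0.0691. The lowest value came from edgeR without the low-count filter, and DESeq2 on the 5 libraries gave an adjusted p of 0.0002. *Ccn2*, a matricellular protein gene, was removed by the filter, at no more than 0.276 CPM in any library, and 11 of the 30 outputs were removed in all.

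**Figure D4:**
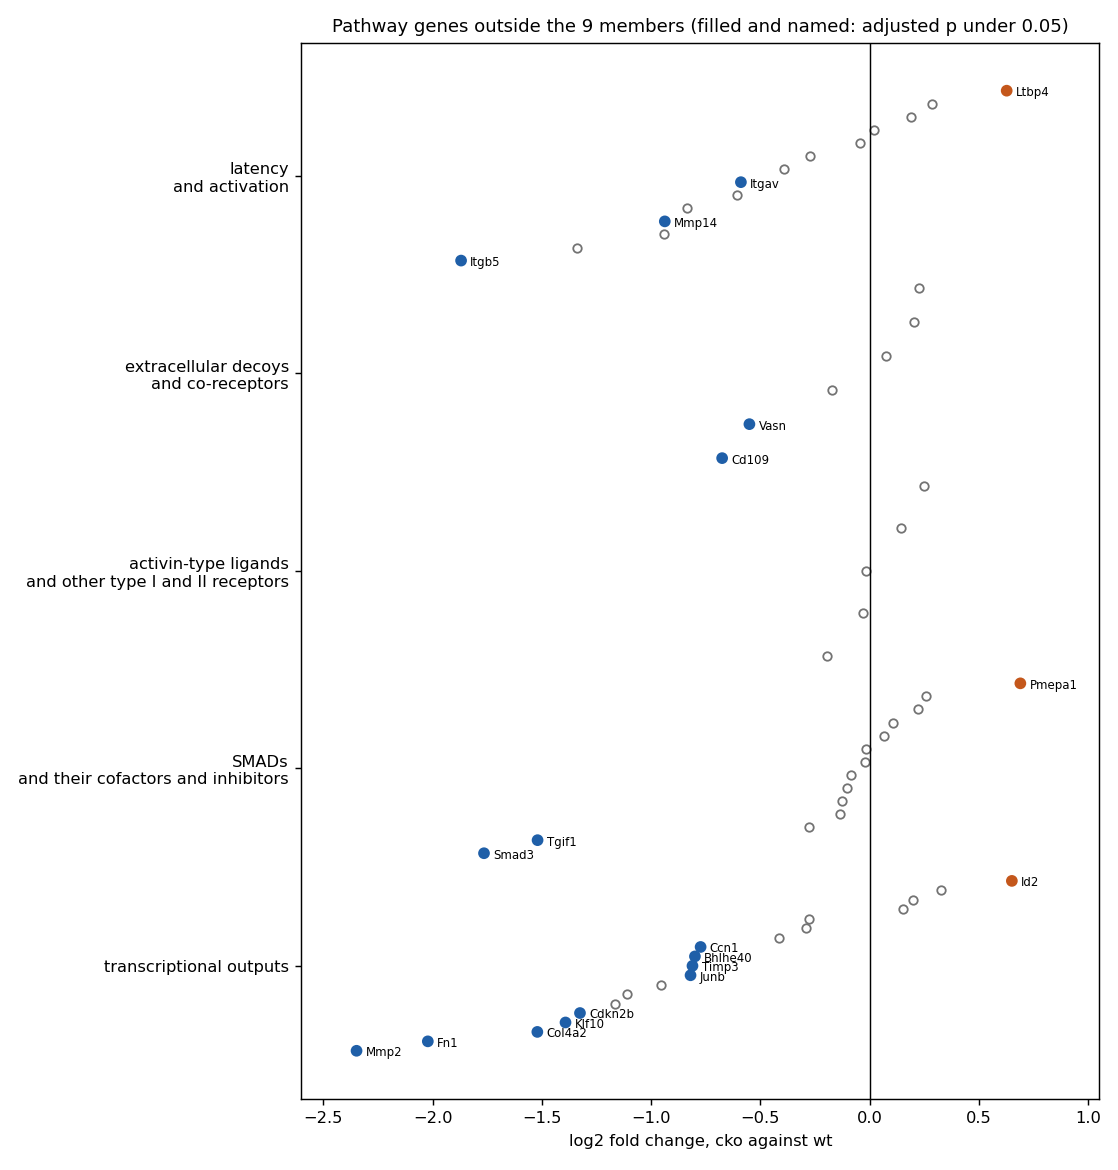
Log2 fold change of cko against wt (horizontal axis) of the 58 tested pathway genes outside the members, in rows by list (vertical axis, spread within a list by order); filled and named points passed an adjusted p under 0.05, blue lower and orange higher. Most filled points lie left of 0, with *Mmp2* at -2.35 and *Smad3* at -1.76, and the activin-type list has no filled point.

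Markers of other cell types were read beside these results, since fewer cells of a type and less RNA per cell cannot be told apart in bulk RNA. Of all tested genes, 8.57% were called lower and 7.86% higher, against which the counts of each list are to be read. Of 8 astrocyte genes 5 were called lower and 0 higher in edgeR (7 lower and 0 higher at an unadjusted p under 0.05; 5 and 0 in DESeq2). Their summed level was 3616 and 2663 CPM in wt and 1736, 962 and 1005 CPM in cko. *Slc1a2*, a glutamate transporter gene and the most abundant of them by the mean of the 5 libraries, was at 631, 646, 408, 265 and 264 CPM. *Gfap* was the highest in wt 1, at 1008 CPM against 178 CPM in wt 3, where *Aldoc* and *Slc4a4* (both 662 CPM) were slightly above *Slc1a2*. The astrocyte sum was lower in each cko library, and the part of these genes in the change of the members was not tested.

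Of 9 oligodendrocyte-lineage genes 4 were called lower and 2 higher, and the summed level was 2756 and 3379 CPM in wt and 3226, 3511 and 3371 CPM in cko. *Olig1* was the most abundant, at 1097, 1351, 1809, 1994 and 1879 CPM, and was called higher. The myelin gene *Mbp* was at 139 and 238 CPM in wt and at 10.5, 9.30 and 11.8 CPM in cko. The part of this list in the change of the members was not tested.

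Of the 8 NSC genes, 3 were called higher (*Nes*, *Hes5* and *Prom1*) and 1 lower (*Slc1a3*). Of 8 neuron genes 6 were tested, 2 were called higher and 1 lower, and the sum was 1256, 1128, 1278, 1266 and 1298 CPM with *Map2* the most abundant. *Dcx*, a gene of young migrating neurons and the one called lower, was at 148 and 100 CPM in wt and at 54.8, 38.5 and 37.4 CPM in cko. *Elavl4*, an RNA-binding protein gene of neurons, was called higher, at 34.1 and 30.2 CPM in wt and 79.2, 77.7 and 80.4 CPM in cko. *Syt1*, a synaptic vesicle gene, was also called higher, at 7.29 and 10.6 CPM in wt and 26.7, 28.1 and 24.7 CPM in cko. The part of these lists in the result was not tested.

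Microglia and macrophages, a known source of *Tgfb1* in brain, left almost no transcripts. The sum of their 10 markers was 0.568, 1.44, 0.671, 0.557 and 0.230 CPM, 6 of the 10 had at most 3 counts in every library, and none could be tested. *Cx3cr1*, *Tmem119*, *Itgam* and *Trem2* were at 0 in all 5 libraries, and *P2ry12* was the most abundant by the mean of the 5 libraries, at no more than 0.437 CPM.

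Endothelial markers summed to 4.32, 5.12, 5.60, 5.10 and 6.76 CPM, mostly from *Kdr*. Of the 7 genes matched, 2 were tested and 0 were called in edgeR (0 at an unadjusted p under 0.05, 0 in DESeq2), and *Cdh5* was at 0 in all 5 libraries. The mural list was dominated by *Notch3*, which neural progenitors also express, at 298 and 271 CPM in wt and 185, 164 and 160 CPM in cko. Without *Notch3* its sum was 3.10, 3.41, 1.85, 2.23 and 1.7004 CPM. *Pdgfra*, also expressed by oligodendrocyte precursors, dominated the fibroblast and meninges list, which without it summed to 12.9 and 21.1 CPM in wt and 4.03, 4.76 and 5.65 CPM in cko. Most of that remainder was *Foxc1*, at 10.7 and 15.3 CPM in wt and 3.25, 3.60 and 3.86 CPM in cko. The choroid plexus markers summed to 2.01 and 4.11 CPM in wt and 0.839, 1.07 and 0.919 CPM in cko, with *Aqp1* the most abundant in wt and cko 1 and *Clic6* in cko 2 and cko 3. The choroid plexus sum, the fibroblast sum without *Pdgfra* and the mural sum without *Notch3* were lower in each cko library, whereas the full fibroblast sum was higher, at 223 and 166 CPM in wt and 272, 232 and 239 CPM in cko. The part of these lists in the result was not tested.

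**Figure D5:**
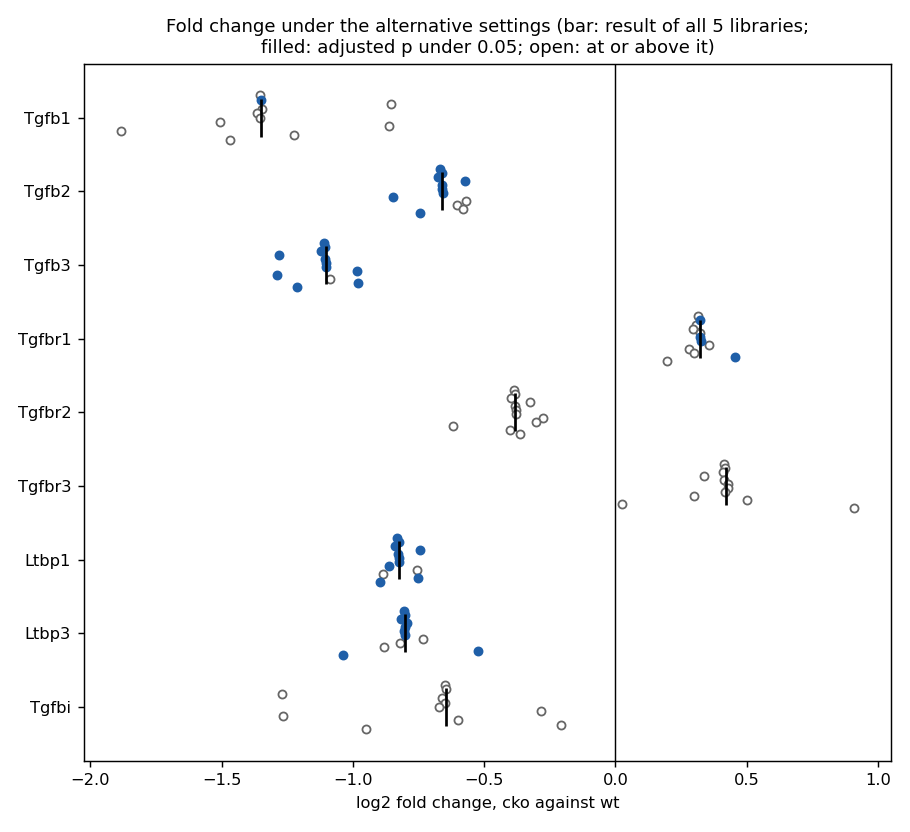
Log2 fold change of cko against wt (horizontal axis) of each of the 9 genes (vertical axis) under the alternative settings, each point a setting, filled where the adjusted p was under 0.05; the bar is the value from all 5 libraries. No point crosses 0, and the points of *Ltbp3* reach from -1.04 to -0.52.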

How the data were processed

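NSC RNA was sequenced by a service company, and the authors aligned reads with HISAT2 to mm10 and deposited raw counts per gene; the labels name GRCm39. The extraction kit also differs between labels and paper. The counting tool and its use of strand are not given in the sources used here. The comparison of 5 libraries was analysed in R 4.3.3 with edgeR 4.0.16: filterByExpr, TMM normalization, and the quasi-likelihood test with Benjamini-Hochberg adjustment over 16710 genes. CPM were TMM-normalized, and errors are SD over libraries or SE of the fit. Floors of 3 counts cover counting error only. Symbols, positions and exon lengths were read from the GENCODE M21 release (GRCm38), where 31829 of 32493 identifiers were found. Alternative settings used other filters, RLE factors in edgeR, DESeq2 1.42.0, all 6 columns, the replicate number as a block, and leaving out each library. Genes named were the members and, of each pathway list, the called genes with the 4 smallest p-values in each direction plus core genes. The members and lists were chosen with earlier results of these data known. The steps were tested on simulated data. Figures were drawn with matplotlib 3.10.9.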

Additional observations from a re-analysis of the deposited data

How the results depend on the processing

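Each of the 9 members kept the sign of its log2 fold change under every alternative that could test it; a minimum of 10 counts in every library removed *Tgfb1* and *Tgfbi*. Members called lower numbered 4, 5 without the low-count filter and 1 under the study's rule. Leaving out a cko library gave 0 (without cko 3) to 3. Members called higher numbered 0, and 1 (*Tgfbr1*) without the low-count filter, with all 6 columns in edgeR and in DESeq2, and 0 with any cko library left out. Pathway genes called lower numbered 16, 24 without the filter, 18 and 21 with all 6 columns in edgeR and DESeq2, 9 under the study's rule, and 8 to 23 with a library left out. Those called higher numbered 3, then 5 without the filter, 6 and 8 with all 6 columns in edgeR and DESeq2, 0 under the study's rule, and 0 to 3 with a cko library left out. Over all tested genes 1432 were called lower and 1314 higher. These numbers were 416 and 317 without cko 2, 457 and 336 without cko 3, and 2794 and 2865 with all 6 columns in edgeR, where wt 2 counts as a separate library. The cause of these differences was not tested. For pathway genes called lower, the upper end of the range with a library left out came from the fit without wt 1. With a cko library left out, 8 to 11 pathway genes were called lower. Other counts without wt 1 or wt 3 are not given, since those fits keep 1 wt library.

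With a library left out, the log2 fold change ranged from -0.85 to -0.57 for *Tgfb2*, -1.29 to -0.98 for *Tgfb3*, 0.20 to 0.46 for *Tgfbr1*, -0.90 to -0.75 for *Ltbp1* and -1.04 to -0.52 for *Ltbp3*. For the remaining members it ranged from -1.89 to -0.86 for *Tgfb1*, -0.62 to -0.28 for *Tgfbr2*, 0.03 (without wt 1) to 0.91 (without wt 3) for *Tgfbr3*, and -1.27 to -0.21 for *Tgfbi*. Without the filter it was -1.35 for *Tgfb1* (called) and 0.32 for *Tgfbr1* (called), and with all 6 columns 0.32 (edgeR) and 0.33 (DESeq2) for *Tgfbr1*. The replicate numbers shared by the genotypes gave 2 pairs, whose differences correlated at r = 0.113 across 16710 genes, which establishes no pairing. With the replicate block 4 members and 15 pathway genes were called lower, and 0 and 2 higher; *Cd109* and *Pmepa1* lost their calls, and no other call changed among the members and the pathway genes that were compared across settings. *Tgfb1*, *Tgfbr3* and *Tgfbi* had at most 48 counts in any library, which limits their precision.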
